A study of Mus musculus with 18 samples.

Results

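Immediate early genes are genes whose transcripts rise within minutes of synaptic activity without new protein being made, and their mRNA is read as a record of recent neuronal activity in the cortex. Calcium and Ras-ERK signalling reach them through transcription factors that are already present in the nucleus, among them CREB, which binds the cAMP response element, and SRF with its partners, which binds the CArG box. Most of the genes encode transcription factors that act on later targets, and a smaller number encode proteins that work at the synapse or shut the signal down.

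10 such genes were followed here among the 55487 genes of the count table: the AP-1 subunits Fos, Fosb and Junb, the zinc finger factors Egr1, Egr2 and Egr4, the neuronal factor Npas4, the nuclear receptor Nr4a1, the synaptic gene Arc and the phosphatase gene Dusp1. They were chosen from genes known for induction by activity, with earlier results of these same counts already known, so the comparisons between genotypes are given as the values of a fit over all genes and no test over the set of 10 was made. WT mouse 19622 was treated apart. It was selected on its distance from the other libraries over all genes, so its values are a description and carry no test.

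RNA labelled as frontal cortex from 18 mice aged 9 to 10 months was sequenced, 6 mice (3 females and 3 males) of each of 3 genotypes. The markers measured in WT mouse 19622 go against that label, with high cerebellum and low excitatory neuron markers, so its values and every fit with 18 mice are given with its tissue in doubt. APP/PS1 mice carried the transgenes that the name of the line gives and served as an amyloid model. APP/PS1/FTnKO mice carried the same transgenes and lacked the β-subunit of farnesyltransferase (Fntb) in forebrain neurons, where Cre was driven by the CamKIIα promoter. By the study's methods both alleles of Fntb were floxed in every group and WT mice were Cre-negative littermates without the transgenes, whereas the series' own description calls the WT mice C57BL/6J, so their background is not settled here. The sources used here do not say whether these 18 mice went through the study's behavioral tests or when they were last handled before tissue collection. Mice with the neuronal knockout but without the APP/PS1 transgenes were not analysed here, so APP/PS1/FTnKO mice differ from WT mice in transgenes and deletion together.

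Total counts were 15925400 to 21030900 per mouse, and the RNA integrity number ran between 8.5 and 8.8 over the WT mice, between 7.7 and 8.7 over the APP/PS1 mice and between 7.6 and 8.7 over the APP/PS1/FTnKO mice. Values are normalized CPM (counts scaled to a common library size) with the libraries of 17 mice scaled together (5 WT, 6 APP/PS1 and 6 APP/PS1/FTnKO), unless 19622 is named. Fntb averaged 22.2 ± 8.60 CPM (SD, n = 5) in WT, 20.2 ± 8.06 (n = 6) in APP/PS1 and 11.8 ± 2.76 (n = 6) in APP/PS1/FTnKO mice, with ranges that touch. App was at 1534 ± 51.2 CPM in WT (n = 5) and at 2897 ± 283 and 2972 ± 517 in the transgenic groups (n = 6 each), and Prnp, whose promoter drives the transgenes, was at 702 ± 41.0, 2118 ± 124 and 2192 ± 317 in the same order. The summed level of 5 excitatory neuron markers was 3043 to 6033 CPM in the 17 mice, and that of 6 cerebellum markers was 33.8 to 103 CPM.

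All 10 genes had their highest mean in WT mice, an intermediate mean in APP/PS1 mice and their lowest mean in APP/PS1/FTnKO mice. Between APP/PS1/FTnKO and WT mice, Arc, Egr1, Egr2 and Egr4 fell, by 0.64 to 1.03 on the log2 scale, in edgeR's quasi-likelihood test at an adjusted p under 0.05 (Benjamini-Hochberg over 17414 genes), where 3.87% of all genes were called. The other 6 genes were lower by 0.33 to 0.61 on the log2 scale without passing that threshold. Neither of the steps in between, APP/PS1 against WT and APP/PS1/FTnKO against APP/PS1, held a gene of the 10 that passed, where 1.5% and 0.327% of all genes did. These 4 calls were made without WT mouse 19622, and with it in the fit none of the 10 passed and 1.51% of all genes did. They also rested on single WT mice. Without 18944 or without 19053 none passed, where 1.32% and 1.17% of all genes did. Without 19718 or without 19721 Egr2 alone passed, where 1.49% and 1.73% of all genes did. The 3 comparisons share their groups, and the 10 genes rose and fell together from mouse to mouse, so the shared direction is not 10 independent observations.

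**Figure D1:**
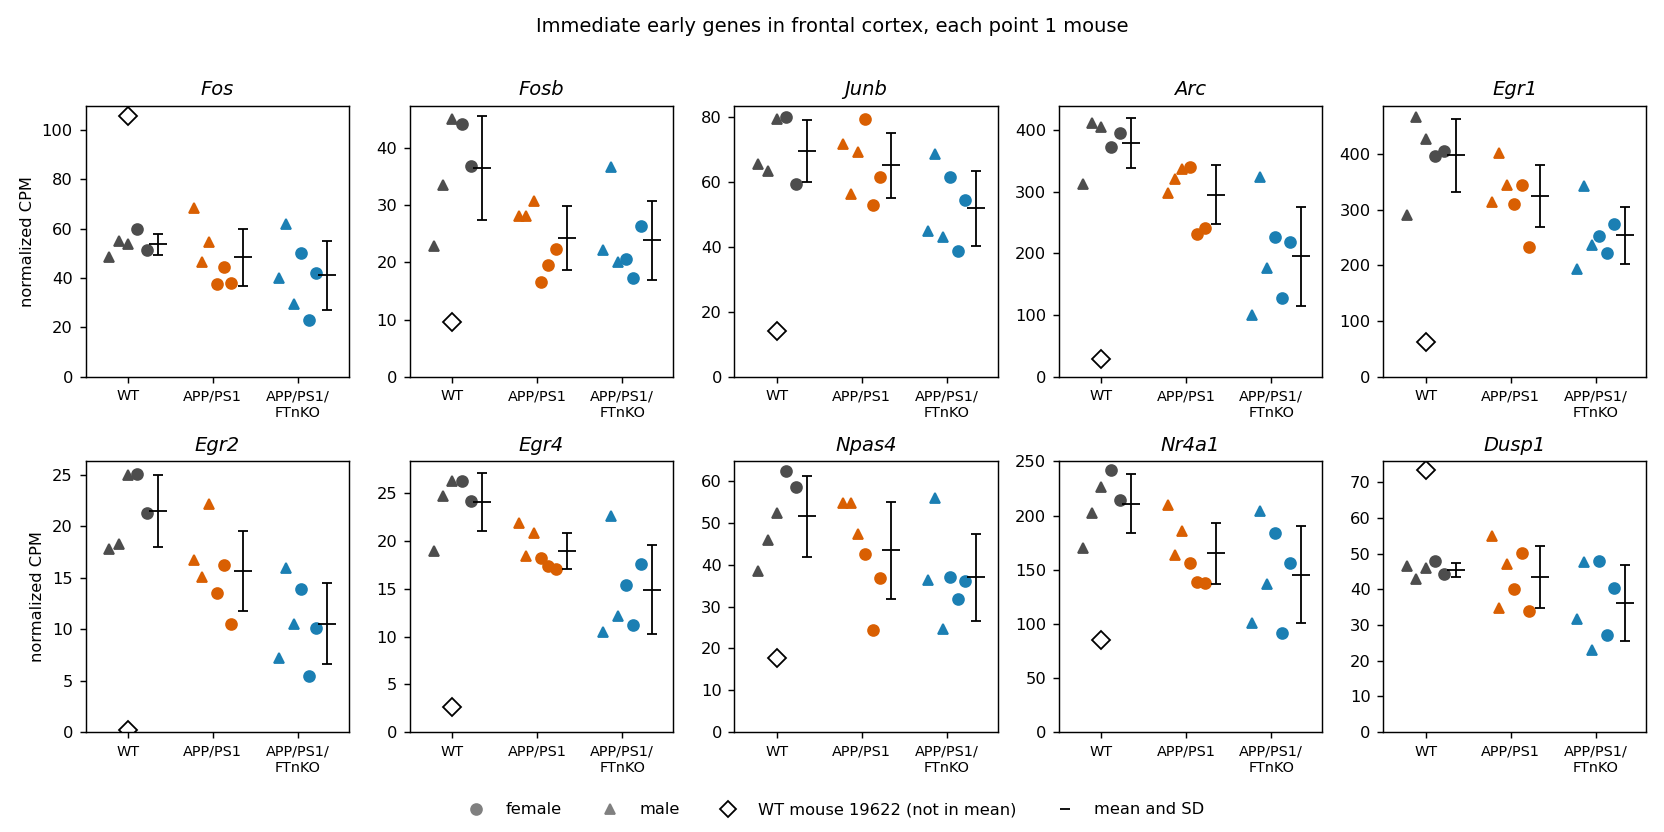
Level of each immediate early gene (normalized CPM, vertical axis from 0) in each mouse by genotype, with circles for females, triangles for males, and the mean and SD of the 17 mice beside the points. In every panel the mean falls from WT to APP/PS1 to APP/PS1/FTnKO, with overlap between the groups except for Egr2 between WT (lowest 17.8 CPM) and APP/PS1/FTnKO (highest 16.0 CPM), and the open diamond of WT mouse 19622, scaled with all 18 mice, stands above the others for Fos and Dusp1 and below them for the other 8 genes.

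The genes differ widely in abundance. Per kilobase of annotated exon (GENCODE M21), the WT mean was 124 ± 13.2 CPM for Arc (SD, n = 5), 88.6 ± 14.5 for Egr1, 60.2 ± 7.80 for Nr4a1, 30.3 ± 4.15 for Junb, 22.8 ± 1.85 for Fos, 13.7 ± 0.597 for Dusp1, 12.5 ± 2.33 for Npas4, 11.2 ± 1.41 for Egr4, 6.33 ± 1.03 for Egr2 and 5.85 ± 1.45 for Fosb. Neighbours in this order that lay within 1 SD of each other were Dusp1 and Npas4, Npas4 and Egr4, and Egr2 and Fosb. In raw counts the 17 mice held from 117 (Egr2) to 9323 (Egr1) counts per gene and library, and the counting error (1 over the square root of the count, averaged in squares) was 3.49% for Dusp1 in WT mice, where the coefficient of variation was 4.35%, and 5.50% for Egr4 in APP/PS1 mice, where it was 10.1%. Because the tissue was bulk cortex, fewer cells that express a gene and less of its RNA per cell cannot be told apart in any of these values.

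The regulatory sequence upstream of the genes is shown for Fos, Egr2, Egr4 and Nr4a1, which stand for the AP-1, EGR and nuclear receptor members and whose RefSeq start (assembly GRCm38.p6) is also a GENCODE transcript start and whose window holds no annotated exon of the gene. The starts of Egr2 and Nr4a1 lie inside the annotated gene, downstream of its first annotated base. Each line gives the 250 bases before the start, 5′ to 3′ on the strand of the gene. Capitals mark the core of the cAMP response element (TGACG or its reverse complement CGTCA) and, in Egr2 alone, the CArG box. The windows are chr12:85473640-85473889 (+ strand) for Fos, chr10:67537619-67537868 (+) for Egr2, chr6:85513590-85513839 (-) for Egr4 and chr15:101266596-101266845 (+) for Nr4a1.
Fos: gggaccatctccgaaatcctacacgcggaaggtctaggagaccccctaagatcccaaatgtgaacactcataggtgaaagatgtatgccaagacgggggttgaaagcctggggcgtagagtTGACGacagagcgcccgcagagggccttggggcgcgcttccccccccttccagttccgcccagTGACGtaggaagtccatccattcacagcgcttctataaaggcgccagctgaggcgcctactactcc
Egr2: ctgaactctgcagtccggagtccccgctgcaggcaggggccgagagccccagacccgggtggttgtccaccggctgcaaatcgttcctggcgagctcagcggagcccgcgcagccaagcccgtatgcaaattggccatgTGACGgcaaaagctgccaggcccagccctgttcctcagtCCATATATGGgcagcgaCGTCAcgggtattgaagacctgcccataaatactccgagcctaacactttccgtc
Egr4: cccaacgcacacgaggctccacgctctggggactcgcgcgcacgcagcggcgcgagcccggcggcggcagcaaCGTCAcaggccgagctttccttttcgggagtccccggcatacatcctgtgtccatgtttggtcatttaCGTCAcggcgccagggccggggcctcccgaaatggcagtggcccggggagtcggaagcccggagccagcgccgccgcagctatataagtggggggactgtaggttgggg
Nr4a1: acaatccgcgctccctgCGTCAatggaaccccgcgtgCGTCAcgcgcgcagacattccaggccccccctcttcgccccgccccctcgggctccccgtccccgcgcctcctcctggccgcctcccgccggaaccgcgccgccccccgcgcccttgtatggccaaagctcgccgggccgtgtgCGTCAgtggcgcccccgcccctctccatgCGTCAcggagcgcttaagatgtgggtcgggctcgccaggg

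A cAMP response element core was present in the window of 8 of the 8 members that have an entry in the RefSeq promoter table, searched on both strands, against 17.8% of the 32851 promoters in that table. These 8 include members that do not meet the conditions of the windows shown. The RefSeq starts of Fosb and Junb are not GENCODE transcript starts, and the windows of Npas4 and Dusp1 hold annotated exon of the gene. Nr4a1 held 4 such cores, Dusp1 held 3 of which a pair overlaps, Fos, Egr2, Egr4 and Npas4 held 2 each, and Fosb and Junb held 1 each. The CArG box was found in the Egr2 window, 72 to 63 bases before the start, and in 1.47% of all promoters. Arc and Egr1 have no entry. The search covered exact matches in the 250 bases before each start. A CArG box farther upstream, or with a differing base, would not be seen. A match is a stretch of letters and not a measured binding site.

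The 3 AP-1 genes encode leucine zipper proteins that bind DNA in pairs. Fos (ENSMUSG00000021250, GRCm38, chromosome 12, 85473890 to 85477273, + strand), whose protein pairs with Jun proteins, had 48.3, 51.2, 53.6, 55.1 and 59.9 CPM in the 5 WT mice. It ran from 37.7 through a median of 45.6 to 68.4 CPM in APP/PS1 mice and from 22.9 through 41.1 to 62.1 CPM in APP/PS1/FTnKO mice. The highest mouse of each transgenic group therefore lay above every WT mouse, while 4 of 6 mice in each lay below the lowest one. The log2 fold change of Fos in APP/PS1/FTnKO against WT was -0.37 ± 0.19 (SE, edgeR's quasi-likelihood test, adjusted p = 0.261).

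Fosb (ENSMUSG00000003545, chromosome 7, 19302696 to 19310051, - strand), which also yields the long-lived ΔFosB isoform that gene counts cannot separate, had 22.9, 33.6, 36.8, 44.2 and 45.2 CPM in WT mice. Its range was 16.6 to 30.7 CPM with a median of 25.2 in APP/PS1 mice and 17.2 to 36.7 CPM with a median of 21.4 in APP/PS1/FTnKO mice. Fosb was the member with nearly the whole of its difference between WT and APP/PS1 mice, with mean levels of 36.6, 24.3 and 23.9 CPM in WT, APP/PS1 and APP/PS1/FTnKO mice. The log2 fold change was -0.60 ± 0.19 for APP/PS1 against WT (SE, edgeR's quasi-likelihood test, adjusted p = 0.163), and -0.02 ± 0.19 for APP/PS1/FTnKO against APP/PS1 (adjusted p = 0.982 in the same edgeR fit).

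Junb (ENSMUSG00000052837, chromosome 8, 84974484 to 84978718, - strand), which encodes a partner of Fos proteins, had 59.3, 63.6, 65.8, 79.4 and 80.2 CPM in WT mice. APP/PS1 mice spanned nearly the same range, from 53.1 through 65.5 to 79.4 CPM, and APP/PS1/FTnKO mice ran from 38.7 through 49.7 to 68.6 CPM. In contrast to Fosb, its lower level lay on the side of the knockout group, with a log2 fold change of -0.33 ± 0.14 against APP/PS1 (SE, edgeR's quasi-likelihood test, adjusted p = 0.357) where APP/PS1 against WT gave -0.09 ± 0.14. The gene model overlaps that of Prdx2 on the opposite strand, and the sources used here do not say whether the counting used strand.

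The EGR genes encode zinc finger factors that bind GC-rich sites, and Egr1 is the member widely used as an activity marker in cortex. Egr1 (ENSMUSG00000038418) had 291, 396, 406, 427 and 466 CPM in WT mice. It ran from 233 through 329 to 401 CPM in APP/PS1 mice and from 194 through 245 to 343 CPM in APP/PS1/FTnKO mice. 5 of 6 APP/PS1/FTnKO mice lay below the lowest WT mouse, against 1 of 6 APP/PS1 mice. Egr1 fell by 0.64 ± 0.14 on the log2 scale in APP/PS1/FTnKO against WT mice (SE, edgeR's quasi-likelihood test, adjusted p = 0.0208).

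Egr2 (ENSMUSG00000037868, chromosome 10, 67535475 to 67542188, + strand), the gene whose window above holds the CArG box, had 17.8, 18.3, 21.3, 25.0 and 25.1 CPM in WT mice. It ran from 10.5 through 15.7 to 22.2 CPM in APP/PS1 mice and from 5.48 through 10.3 to 16.0 CPM in APP/PS1/FTnKO mice. Egr2 was the single member of the 10 for which APP/PS1/FTnKO and WT mice did not overlap. How many of all genes lack overlap, or have as many mice below the lowest WT mouse, was not counted. By adjusted p, 3.87% of all genes tested were called in this comparison and 1.65% were called lower. It also had the largest change of the 10, a fall of 1.03 ± 0.22 on the log2 scale (SE, edgeR's quasi-likelihood test, adjusted p = 0.0169).

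Egr4 (ENSMUSG00000071341, chromosome 6, 85511121 to 85513589, - strand) had 19.0, 24.2, 24.7, 26.3 and 26.3 CPM in WT mice. Its APP/PS1 mice were the tightest group, from 17.1 through 18.3 to 21.9 CPM, with 4 of 6 below the lowest WT mouse. APP/PS1/FTnKO mice spread from 10.5 through 13.8 to 22.6 CPM with 5 of 6 below that mouse, and Egr4 fell by 0.69 ± 0.16 on the log2 scale between these genotypes (SE, edgeR's quasi-likelihood test, adjusted p = 0.0246).

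Npas4 encodes a factor that is induced by calcium entry in neurons and tunes inhibitory synapses. Npas4 (ENSMUSG00000045903, chromosome 19, 4984355 to 4990316, - strand) had 38.4, 45.9, 52.3, 58.6 and 62.4 CPM in WT mice, 24.4 through 44.9 to 54.8 CPM in APP/PS1 mice and 24.6 through 36.3 to 55.9 CPM in APP/PS1/FTnKO mice. All but 1 of the APP/PS1/FTnKO mice lay below the lowest WT mouse, and the exception lay within the WT range. The log2 fold change against WT was -0.48 ± 0.20 (SE, edgeR's quasi-likelihood test, adjusted p = 0.167).

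Nr4a1 (ENSMUSG00000023034, chromosome 15, 101254269 to 101274795, + strand), which encodes an orphan nuclear receptor, had 169.9, 202, 214, 227 and 242 CPM in WT mice. APP/PS1 mice ran from 138 through 159.5 to 209.8 CPM, and APP/PS1/FTnKO mice from 91.3 through 146 to 205 CPM. In each of these groups 4 of 6 mice lay below every WT mouse. Its log2 fold change was -0.35 ± 0.17 (SE) from WT to APP/PS1 and -0.18 ± 0.17 from there to the knockout group. The whole step from WT to APP/PS1/FTnKO was -0.53 ± 0.18 (edgeR's quasi-likelihood test, adjusted p = 0.0928).

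Arc encodes a capsid-forming protein that moves to active synapses and takes part in the removal of AMPA receptors. Arc (ENSMUSG00000022602, chromosome 15, 74669083 to 74672570, - strand) had 312, 373, 394, 405 and 411 CPM in WT mice, 231 through 309.5 to 339 CPM in APP/PS1 mice and 99.4 through 197 to 324 CPM in APP/PS1/FTnKO mice. The lowest APP/PS1/FTnKO mouse was thus far below any WT mouse, while the highest lay inside the WT range. Arc fell by 0.95 ± 0.21 on the log2 scale against WT (SE, edgeR's quasi-likelihood test, adjusted p = 0.0215), and it was also the member with the smallest adjusted p against APP/PS1, at a log2 fold change of -0.59 ± 0.20 (edgeR, adjusted p = 0.265).

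Dusp1 encodes a phosphatase that switches off MAP kinases. Dusp1 (ENSMUSG00000024190, chromosome 17, 26505590 to 26562128, - strand) had 42.8, 44.2, 46.1, 46.6 and 47.8 CPM in WT mice, the narrowest spread of the 10 genes. The transgenic groups were wider, from 33.8 through 43.6 to 54.9 CPM in APP/PS1 mice and from 22.9 through 36.0 to 47.9 CPM in APP/PS1/FTnKO mice. The log2 fold change of -0.33 ± 0.17 against WT did not pass (SE, edgeR's quasi-likelihood test, adjusted p = 0.270). Its annotated model overlaps several other genes, among them Ergic1 on the opposite strand.

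APP/PS1 against WT asked what the amyloid transgenes changed. All 10 genes had a lower mean in APP/PS1 mice, with log2 fold changes of -0.60 (Fosb) to -0.07 (Dusp1) and a median of -0.32, where the median of all genes tested was -0.00. The RNA integrity number was lower in APP/PS1 mice (median 8.2 against 8.7), and with it as a term the median of the 10 was -0.18 and Arc went from -0.36 to -0.05. With 19622 in the fit the median was -0.15, and 9 of the 10 were lower, with Junb at 0.13. In edgeR's quasi-likelihood test on 17 mice 0 of the 10 were called while 1.5% of all genes were, 2 of the 10 (Fosb and Egr4) had an unadjusted p under 0.05, as did 14.0% of all genes, and DESeq2 called 0 and 2.69% of all genes. The smallest adjusted p was that of Fosb, 0.163 in edgeR. DESeq2 on the compared genotypes alone, chosen after seeing the data, called Fosb, Arc and Egr4 and 2.91% of all genes. EdgeR with no filter on low counts called Fosb and 1.36% of all genes.

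APP/PS1/FTnKO against APP/PS1 asked what the loss of neuronal farnesyltransferase changed on the amyloid background. Again all 10 genes had a lower mean, with log2 fold changes of -0.59 (Arc) to -0.02 (Fosb) and a median of -0.30 against -0.00 over all genes tested. In edgeR's quasi-likelihood test 0 of the 10 were called, as were 0.327% of all genes. 5 of the 10 (Junb, Arc, Egr1, Egr2 and Egr4) had an unadjusted p under 0.05, as did 11.5% of all genes, and DESeq2 called 0 and 1.45% of all genes. With RNA integrity as a term edgeR called 0 of the 10 and 1.5% of all genes. The median of the 10 was then -0.30, with Arc going from -0.59 to -0.76 (edgeR, adjusted p = 0.0537) and Fos from -0.22 to -0.20. With 19622 in the fit all 10 were lower at a median of -0.30, and edgeR called 0 and 0.0116% of all genes.

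APP/PS1/FTnKO against WT joined both changes, and here 4 of the 10 were called, all lower, against 3.87% of all genes called and 1.65% called lower. The log2 fold changes ran from -1.03 (Egr2) to -0.33 (Dusp1) with a median of -0.57, where the median of all genes tested was 0.01, and 8 of the 10 had an unadjusted p under 0.05, as did 22.1% of all genes. DESeq2 called 6 of the 10, Fosb and Junb beside the same 4, where it called 7.59% of all genes. When RNA integrity entered the edgeR model as well, it called 3 (Arc, Egr1 and Egr2) and 2.23% of all genes. With WT mouse 19622 in the fit edgeR called 0 of the 10 and 1.51% of all genes, although all 10 were still lower, with 2 at an unadjusted p under 0.05 and adjusted p from 0.183 to 0.737. The differences were then smaller, the median being -0.44 in place of -0.57 on the log2 scale, with Arc at -0.69, Egr1 at -0.41, Egr2 at -0.76, Egr4 at -0.44 and Junb at -0.20. Leaving out 1 of the other 5 WT mice changed the calls too. Without 18944 edgeR called 0 of the 10 and 1.32% of all genes, and without 19053, the other remaining WT female, 0 and 1.17%. The log2 fold change was then -0.94 and -0.91 for Arc, -0.62 and -0.61 for Egr1, -0.92 and -1.002 for Egr2 and -0.64 and -0.68 for Egr4, with adjusted p between 0.0510 and 0.0798 in edgeR. Without 19718 or without 19721 it called Egr2 alone, where 1.49% and 1.73% of all genes were called.

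**Figure D2:**
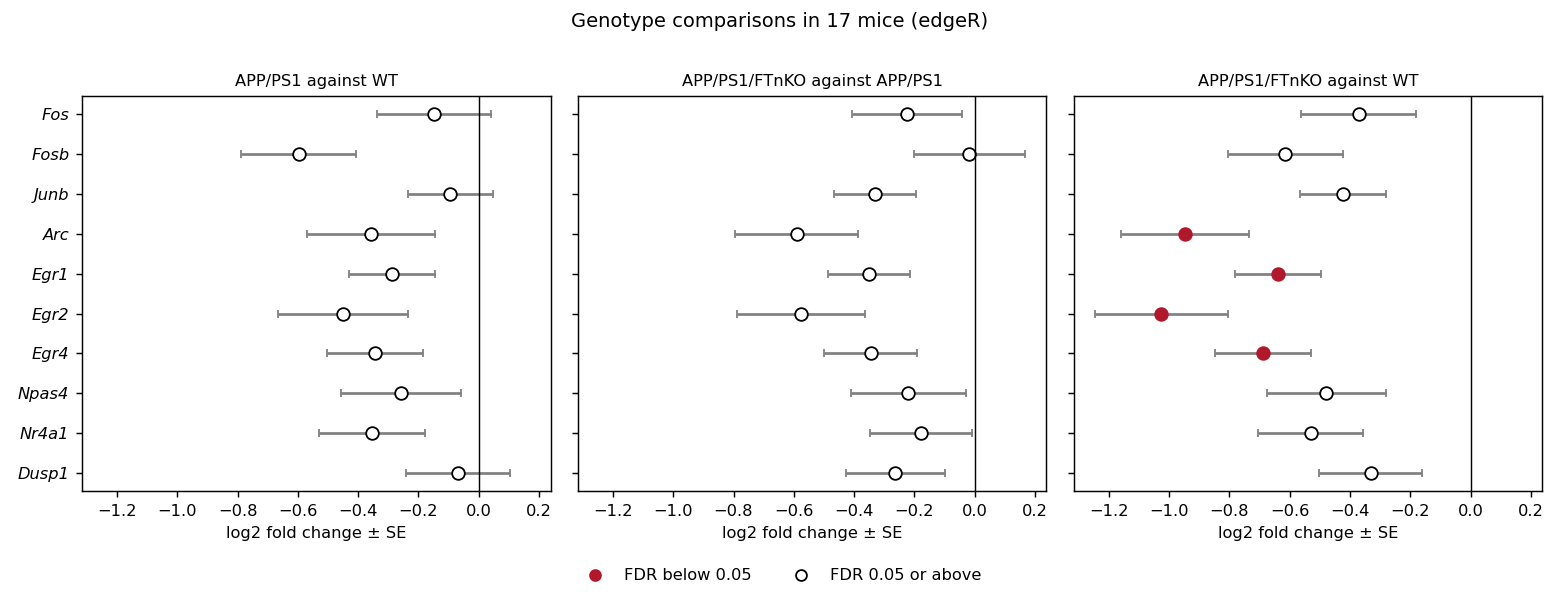
Log2 fold change of each gene in the 3 genotype comparisons over 17 mice, with bars of 1 standard error from edgeR and filled points for an adjusted p under 0.05. Every point lies at or left of 0, and the filled points are Arc, Egr1, Egr2 and Egr4 in APP/PS1/FTnKO against WT.

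No difference between females and males passed the test. 9 of the 10 genes had a lower fitted level in females, the median difference being -0.10 on the log2 scale, and edgeR's quasi-likelihood test called 0 of the 10 and 0.0689% of all genes. An unadjusted p under 0.05 was found for 0 of the 10 and for 6.70% of all genes. DESeq2 called 0 of the 10 and 0.178% of all genes. The test of whether the genotype differences depended on sex called 0 of the 10 and 0% of all genes in edgeR, and 1 of the 10 (Npas4) had an unadjusted p under 0.05. These tests had 2 WT females.

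With genotype differences taken off, a mouse that was high for one of the genes tended to be high for the others. On log2 CPM with genotype and sex effects removed, 45 of 45 pairs of genes had a positive Pearson's r over the 17 mice, from 0.323 to 0.901 with a median of 0.674, and Spearman's rho ran from 0.159 to 0.912 with a median of 0.645. In permutation tests that shuffled mice within genotype (two-sided, 100000 resamples), 35 pairs by Pearson's r and 29 by Spearman's rho had a Benjamini-Hochberg adjusted p under 0.05 over the 45 pairs, and 29 passed both. With the 2 mice farthest from the median of the first-named gene left out, r was 0.160 to 0.865 and stayed positive in 45 pairs. All pairs share the same libraries and scaling.

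The closest pair was Egr4 and Nr4a1, with r = 0.901 (permutation p = 0.00013, adjusted p = 0.00259) and rho = 0.912 (permutation p = 9e-05, adjusted p = 0.00405), and r = 0.865 without 2 mice. Egr2 and Nr4a1 followed with r = 0.893 and rho = 0.841, then Fos and Dusp1 with r = 0.888 and rho = 0.860. The loosest pair was Junb and Egr1, with r = 0.323 (permutation p = 0.253) and rho = 0.159 (permutation p = 0.573). Egr4 and Nr4a1 had the highest mean r with the other 9 genes, 0.775 and 0.767, and Npas4 and Egr1 the lowest, 0.550 and 0.558. Within genotypes of 6 mice, the median r over the 45 pairs was 0.462 in APP/PS1 mice, where 39 pairs were positive and the lowest r was -0.31, and 0.822 in APP/PS1/FTnKO mice, where 45 were positive and the lowest was 0.485, a difference that was not tested. Over the 5 WT mice the median was 0.714, with 40 positive pairs and the lowest r at -0.59.

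**Figure D3:**
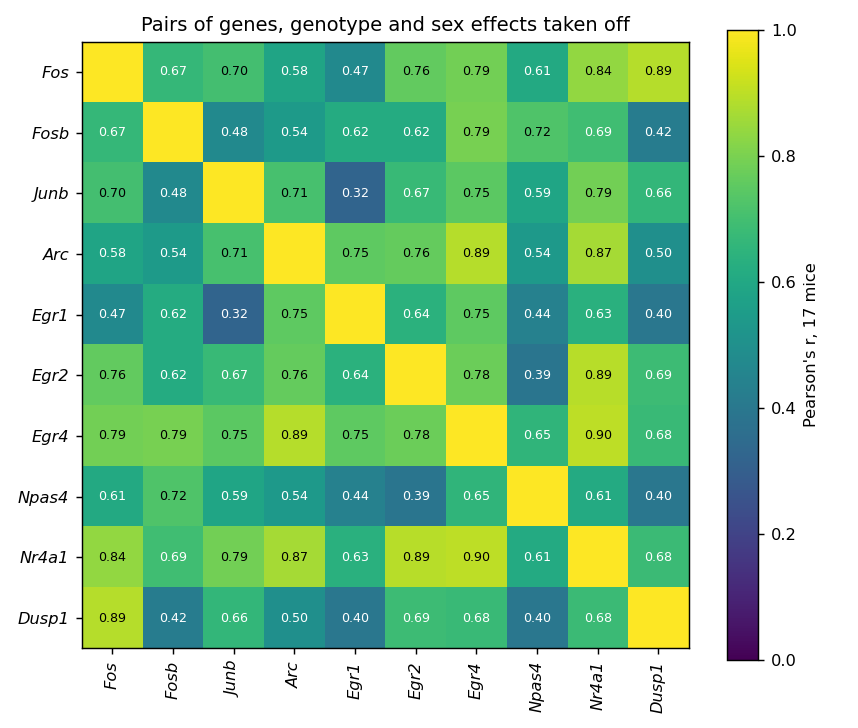
Pearson's r between each pair of genes over 17 mice, on log2 CPM with genotype and sex effects taken off (color and printed value). All 45 pairs are positive, from 0.32 for Junb and Egr1 to 0.90 for Egr4 and Nr4a1.

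The joint movement was plain among the APP/PS1/FTnKO mice. Expressed as the mean of the 10 standardized deviations, the 6 mice stood at -1.30 (19394), -1.09 (16974), -0.91 (19720), 0.65 (19722), 0.88 (18943) and 1.78 (18973). Mouse 18973 was above its group for 10 of the 10 genes, and mice 16974 and 19394 for 0 of them. Each side held females and males. In WT mice the same mean ran from -1.03 (19101) to 0.71 (18944), and in APP/PS1 mice from -0.70 (19723) to 0.61 (16975). From 19394 to 18973, as listed above, the RNA integrity numbers of the 6 APP/PS1/FTnKO mice were 8.6, 7.6, 8.6, 8.7, 8.4 and 8.6, and their part in the deviations was not tested.

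**Figure D4:**
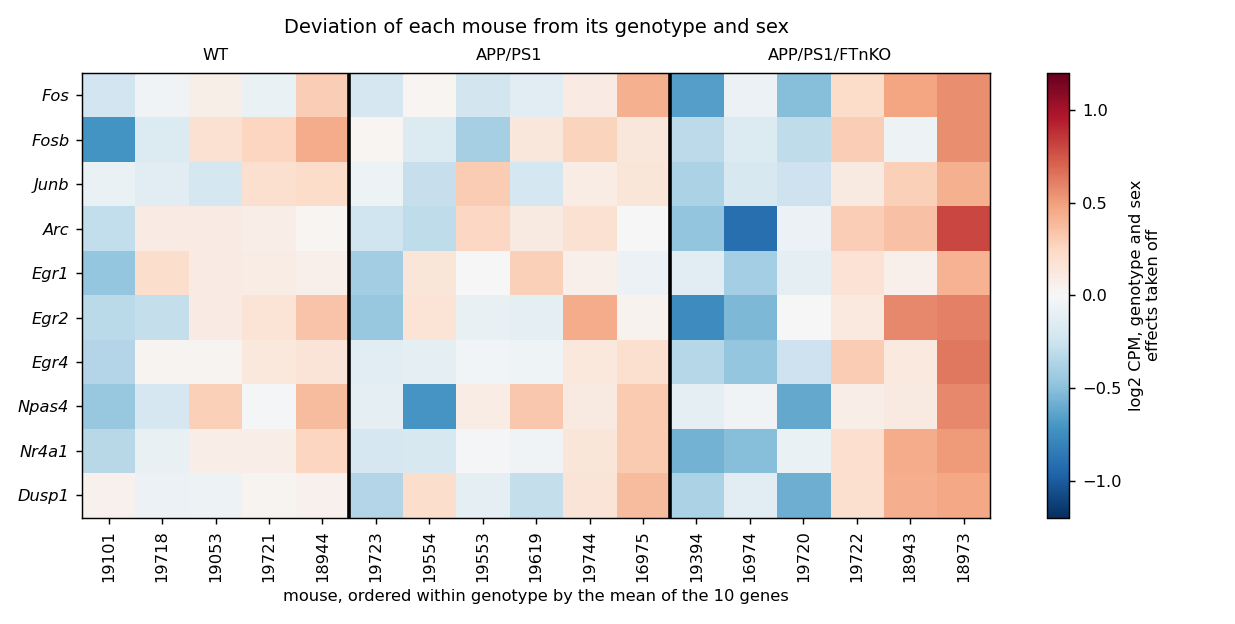
Deviation of each mouse (columns, ordered by their mean within genotype) from the level fitted for its genotype and sex, for each of the 10 genes (rows), in log2 CPM. Columns tend to be of 1 color, from blue in APP/PS1/FTnKO mouse 19394 to red in mouse 18973, which was above its group for 10 of 10 genes.

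The genes also varied more between mice of a group than most genes did. The biological coefficient of variation that edgeR fitted was 0.164 (Junb) to 0.252 (Egr2), with a median of 0.210 against 0.113 over all genes tested. Among the 500 genes nearest in level, each of the 10 stood between the percentiles 93.2 (Egr4) and 99.6 (Arc). The coefficient of variation was larger in APP/PS1/FTnKO than in WT mice for each of the 10, for example for Arc (41.0% against 10.6%), Fos (34.2% against 8.12%) and Dusp1 (29.3% against 4.35%). This difference in spread was not tested and was not counted over all genes, and the WT mice here are the 5 that remained after 19622 was taken out for its distance.

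WT mouse 19622 stood outside the range of all 17 other mice for each of the 10 genes, but not in a single direction. With 18 mice scaled together, it had 106 CPM of Fos, against 48.2 to 59.8 in the other WT mice, and 73.3 CPM of Dusp1, against 43.1 to 47.7. The other 8 genes lay below every other mouse. Arc was at 29.3 CPM where the other WT mice averaged 379, a 13.0-fold lower level, Egr1 was at 61.6 against 397 and Egr4 at 2.67 against 24.1 CPM. Egr2 had 5 counts in this library, or 0.252 CPM, against a mean of 21.5. Nr4a1, at 84.8 CPM, lay nearest to the others, whose lowest value was 91.6.

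Other markers moved with this pattern. In 19622 the summed level of the 6 cerebellum markers was 2026 CPM, against 33.8 to 103 in the other mice, that of the 5 excitatory neuron markers was 505 against 3043 to 6033, and that of the 4 oligodendrocyte markers was 8705 against 2753 to 5884 CPM. The 4 striatum markers summed to 112 CPM against 327 to 955, the 4 microglia markers to 107 against 200.1 to 375, and the 4 astrocyte markers to 1600.3 against 901 to 1305. The 6 interneuron markers summed to 1062 CPM, the 4 endothelium markers to 217 and the 4 blood markers to 83.4, each within the range of the other mice. The part of these markers in the levels of the 10 genes was not tested.

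**Figure D5:**
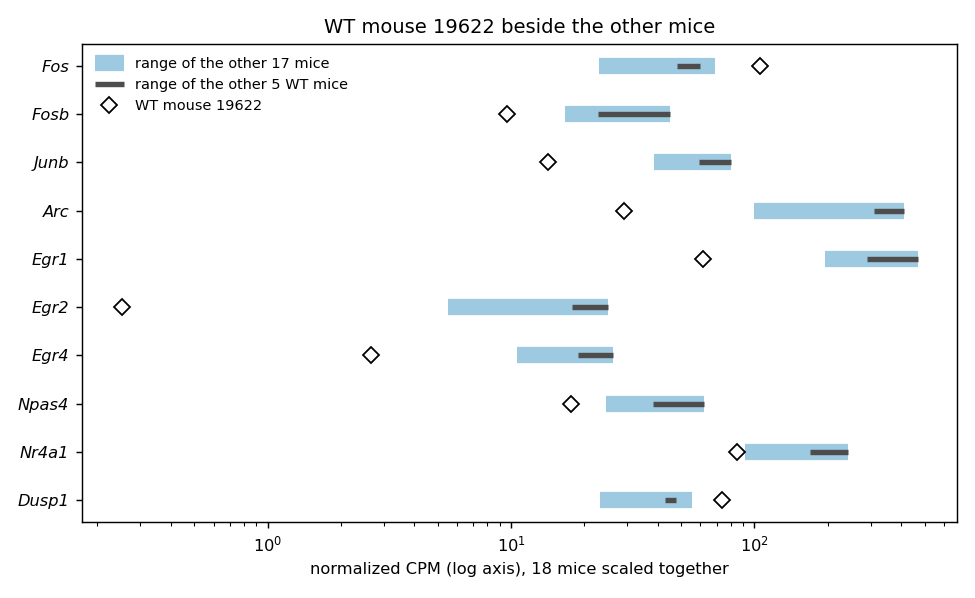
Level of each gene in WT mouse 19622 (open diamond) beside the range of the other 17 mice (broad bar) and of the other 5 WT mice (narrow bar), in normalized CPM on a log axis with 18 mice scaled together. The diamond lies right of the broad bar for Fos (106) and Dusp1 (73.3) and left of it for the other 8 genes, farthest for Egr2 (0.252).

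Genes of the same program outside the 10 were described from lists drawn up with these data known. Of 20 other immediate early transcription factor genes 19 were tested. In APP/PS1/FTnKO against WT mice, 17 of the 19 were lower, at a median of -0.39 on the log2 scale, and 4 fell in edgeR's quasi-likelihood test where 1.65% of all genes did. Egr3, the remaining EGR gene, fell by 0.59 ± 0.11 (SE) on the log2 scale from a mean of 175 to 115 CPM. Klf10 fell by 0.80 ± 0.19 from 48.7 to 27.5 CPM, Jun, the main partner of Fos, by 0.46 ± 0.11 from 35.9 to 25.9 CPM, and Csrnp1 by 0.43 ± 0.12 from 15.4 to 11.5 CPM. An unadjusted p under 0.05 was found for 11 of the 19 and for 22.1% of all genes. DESeq2 called 6 of the 19 and 7.59% of all genes, and with 19622 in the fit edgeR called Jun alone and 1.51% of all genes. In APP/PS1 against WT, 13 of the 19 were lower and 0 passed in edgeR or DESeq2. An unadjusted p under 0.05 was found for 3 of the 19 and for 14.0% of all genes. The smallest p of the list was that of Egr3 (log2 fold change -0.33). In APP/PS1/FTnKO against APP/PS1, 19 of the 19 were lower and 0 passed in edgeR or DESeq2. An unadjusted p under 0.05 was found for 5 of the 19 and for 11.5% of all genes. The smallest p of the list was that of Klf10 (log2 fold change -0.55).

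Activity-induced genes that encode effectors, growth factors and peptides numbered 24, and 24 were tested. Sst stands both here and among the interneuron markers. In APP/PS1/FTnKO against WT mice 19 were lower, at a median of -0.28 on the log2 scale, and 3 fell in edgeR's quasi-likelihood test, where 1.65% of all genes did. An unadjusted p under 0.05 was found for 10 of the 24 and for 22.1% of all genes, and DESeq2 called 5 of the 24 and 7.59% of all genes. Nptx2, a secreted pentraxin that clusters AMPA receptors, fell by 0.54 ± 0.09 (SE) from a mean of 45.7 to 30.9 CPM. Homer1, a postsynaptic scaffold gene with a short activity-induced isoform that gene counts cannot separate, fell by 0.65 ± 0.17 from 224 to 140.4 CPM, and Nrn1, which encodes neuritin, by 0.53 ± 0.11 from 146 to 99.0 CPM. With 19622 in the fit 0 of the 24 passed in edgeR, where 1.51% of all genes did. Nptx2 was also the gene of this list that fell in APP/PS1 against WT mice, by 0.36 ± 0.09 (edgeR's quasi-likelihood test, adjusted p = 0.0484), where 20 of the 24 were lower and 1.5% of all genes were called. With 19622 in the fit Nptx2 did not pass there either (edgeR, adjusted p = 0.930). In APP/PS1/FTnKO against APP/PS1 mice 16 of the 24 were lower and 0 passed in edgeR or DESeq2. An unadjusted p under 0.05 was found for 4 of the 24 and for 11.5% of all genes. The smallest p of the list was that of Crh, which was higher (log2 fold change 0.41).

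The upstream regulators are kinases, receptors and resident transcription factors on the way from calcium and Ras-ERK to these genes. 22 of 22 were tested, and in APP/PS1/FTnKO against WT mice 19 were lower, at a median of -0.10 on the log2 scale. EdgeR called 0 of the 22 and 3.87% of all genes, 8 of the 22 had an unadjusted p under 0.05, as did 22.1% of all genes, and DESeq2 called 1 and 7.59% of all genes. The smallest p was that of Srf, with a log2 fold change of -0.23 ± 0.08 (SE). In APP/PS1 against WT edgeR and DESeq2 called 0. An unadjusted p under 0.05 was found for 2 of the 22 and for 14.0% of all genes. The smallest p of the list was that of Grin1 (log2 fold change -0.10). In APP/PS1/FTnKO against APP/PS1 edgeR called 0 and DESeq2 called 1 and 1.45% of all genes. An unadjusted p under 0.05 was found for 6 of the 22 and for 11.5% of all genes. The smallest p of the list was that of Camk2a (log2 fold change -0.42), the gene whose promoter drives Cre and which is also among the excitatory neuron markers.

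Markers of excitatory neurons, in which these genes are induced by activity, lay in the same direction. All 5 were lower in APP/PS1/FTnKO than in WT mice, at a median of -0.32 on the log2 scale, and Slc17a7, the vesicular glutamate transporter, fell by 0.46 ± 0.12 (SE, edgeR's quasi-likelihood test, adjusted p = 0.0396), the 1 marker that edgeR called, where 3.87% of all genes were. An unadjusted p under 0.05 was found for 22.1% of all genes and 3 of the 5 markers. DESeq2 called 7.59% of all genes and 2 of the 5 markers. Their summed level lay between 4274 and 6033 CPM over the WT mice, 3707 and 5824 over the APP/PS1 mice, and 3043 and 4807 over the APP/PS1/FTnKO mice. With 19622 in the fit 0 of the 5 passed in edgeR, where 1.51% of all genes did. In APP/PS1 against WT 4 of the 5 were lower, and in APP/PS1/FTnKO against APP/PS1 3 of the 5, the smallest p being that of Slc17a7 (log2 fold change -0.38). Both of these held 0 calls by edgeR. An unadjusted p under 0.05 was found for 0 and 2 markers, and for 14.0% and 11.5% of all genes. DESeq2 called 0 and 2 markers, and 2.69% and 1.45% of all genes. The part of these markers in the levels of the 10 genes was not tested.

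Among the other cell types, the microglial receptors Csf1r and Cx3cr1 rose in APP/PS1 against WT mice, by 0.58 ± 0.11 and 0.60 ± 0.13 on the log2 scale (SE, edgeR's quasi-likelihood test, adjusted p = 0.0119 and 0.0222), and 4 of 4 microglia markers were higher, where 1.5% of all genes were called. In APP/PS1/FTnKO against APP/PS1 mice 4 of 4 were lower and 0 passed in edgeR or DESeq2. An unadjusted p under 0.05 was found for 2 of the 4 and for 11.5% of all genes, and the smallest of the 4 was that of Tmem119 (log2 fold change -0.35). Against WT, 3 of 4 were higher in APP/PS1/FTnKO mice, edgeR called 0, and DESeq2 called 1 and 7.59% of all genes. Here 2 of the 4 had an unadjusted p under 0.05, as did 22.1% of all genes, and the smallest of the 4 was that of Cx3cr1 (log2 fold change 0.47). No marker of interneurons (6 tested), astrocytes (4), oligodendrocytes (4), endothelium (4), blood (4), striatum (4) or cerebellum (4 of 6 tested) passed in edgeR in any genotype comparison. The smallest p among these was that of the astrocyte gene Aqp4 in APP/PS1 against WT, at a log2 fold change of 0.46 ± 0.12 (edgeR, adjusted p = 0.0536), which DESeq2 called where it called 2.69% of all genes. In the other 2 comparisons the smallest p of that list was that of Aqp4 against APP/PS1 (log2 fold change -0.31) and Gja1 in the knockout group against WT (0.15). The blood markers were lower in both transgenic groups by a median log2 fold change of -1.62 and -1.19 against WT without passing, with sums of 2.24 to 881 CPM over the 17 mice. The gene with the smallest p of each remaining list is given by its log2 fold change in APP/PS1 against WT, then APP/PS1/FTnKO against APP/PS1, then APP/PS1/FTnKO against WT. For interneurons these were Gad1 (-0.22), Vip (0.28) and Gad1 (-0.22), and for oligodendrocytes, in the last 2 comparisons, Mbp (0.11 and 0.19). Endothelium had Slco1a4 throughout (0.30, -0.20 and 0.10), and blood had Hbb-bt (-1.65), Hba-a1 (0.66) and Hbb-bt (-1.32). Striatum had Ppp1r1b throughout (0.06, -0.14 and -0.08), and cerebellum had Cbln1 (0.18), Zic1 (0.13) and En2 (-0.49).

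The genes whose residual levels most resembled the mean of the 10 over the 17 mice, out of 17404 ranked, were Mir132, Lrrc18, Spty2d1, Rprd1b, Ccn2, Fbxo30, Ppp1r13b, Slc23a2, Fer and Sik1, with Pearson's r from 0.834 down to 0.780 and a median r of -0.01 over all genes. Mir132 and Lrrc18 were at a mean of 0.543 and 0.532 CPM, so few counts lie behind them. When 19622 was included, 2 of the 10, Mir132 and Ccn2, stayed among the 10 most alike, and r was -0.11 for Spty2d1 and -0.29 for Rprd1b. None of the 10 was called in a genotype comparison by edgeR, the smallest adjusted p being 0.130 for Slc23a2 in APP/PS1 against WT. Of the lists above, the 19 other immediate early factor genes had a median r of 0.465 with that mean, the 24 effector genes 0.411, the 22 upstream regulators 0.147 and 4 excitatory neuron markers 0.251, while the microglia, astrocyte and oligodendrocyte markers had -0.41, -0.34 and -0.33. These correlations are over mice, were ranked or listed with no p, and share libraries and scaling.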

How the data were processed

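Gene-level raw counts of 18 libraries labelled frontal cortex (stranded, poly(A)-selected, paired-end) were used as deposited by the authors, who used Trimmomatic 0.33 for trimming, HISAT2 2.1.0 with the GRCm38 genome for alignment and featureCounts for counting (settings not given in the sources used here). All 18 columns matched a mouse and 0 were left unused. Genotypes came from the labels, and each library is a separate mouse.

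Genes with enough counts (filterByExpr, minimum 10) were fitted with edgeR 4.0.16 in R 4.3.3 (TMM scaling, quasi-likelihood test, genotype and sex), with 17 mice and 17414 genes. WT mouse 19622 was left out because the study excluded an outlying WT mouse and the choice of genes asked for it apart. P-values were Benjamini-Hochberg adjusted over all genes with a threshold of 0.05. DESeq2 1.42.0, limma 3.58.1 (voom), RLE scaling, other filters, no sex term, the RNA integrity number as a term, only the compared genotypes, all 18 mice and leaving out each mouse were alternatives. Correlations used log2 CPM (prior count 2) with genotype and sex effects removed. The code was tested on simulated data.

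The 10 genes, the lists and the tests were chosen with earlier results of these data known. Named genes were the 10, the 10 most alike, the called and smallest-p genes of each list, and Fntb, App and Prnp. 2 genes that this rule names are not reported here. Gene models were from GENCODE M21 and promoters from RefSeq (GRCm38.p6), of which 8 of the 10 genes had an entry. Egr2 has 5 entries, and the one taken starts at a GENCODE transcript start.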

Additional observations from a re-analysis of the deposited data

Results flagged for a closer look

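A mouse was marked where its gap to the nearest other mouse of its genotype was large beside the range of the group (Dixon's ratio), which chance does in about 1 in 20 groups, and 40 groups were tested. Among the 17 mice 1 was marked, WT mouse 19101 for Egr4, at 18.96 CPM with the next WT mouse at 24.22 CPM. Without 19101, Egr4 was still called in APP/PS1/FTnKO against WT mice by edgeR.

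The other 6 marks were all WT mouse 19622, set among the other 5 WT mice. It was highest for Fos, at 105.6 CPM with the next at 59.78, and for Dusp1, at 73.31 CPM with the next at 47.68. It was lowest for Junb at 14.15 CPM (next 59.27), for Arc at 29.25 (next 310.7), for Egr2 at 0.2517 (next 17.74) and for Egr4 at 2.669 (next 18.89). This mouse was selected on its distance over all genes, so the marks describe it and test nothing.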

How the results depend on the processing

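APP/PS1/FTnKO against WT held 4 calls of the 10 genes, and also 4 in 8 of the 17 fits that left out 1 mouse, which ranged from 0 to 7: 0 without WT 18944 or 19053 (232 and 206 of all genes called), 1 (Egr2) without WT 19718 or 19721 (261 and 304), 2 (Arc and Egr2) without APP/PS1/FTnKO 16974 (250), and 7 without APP/PS1/FTnKO 18973 (987), against 674 with 17 mice. Over these 17 fits the log2 fold change ran from -1.17 to -0.79 for Arc, -0.74 to -0.56 for Egr1, -1.17 to -0.90 for Egr2 and -0.86 to -0.60 for Egr4. It held 0 with all 18 mice by edgeR and by DESeq2 (1.51% and 5.16% of all genes called), and 7 with no filter on low counts (Fosb, Junb and Nr4a1 added, 2.93% of all genes), where the number of genes in the adjustment also changed. APP/PS1 against WT held 0 to 1 when a mouse was left out (1, Fosb, without WT 19101), 1 with no filter (Fosb, 1.36% of all genes) and 3 in DESeq2 on the compared genotypes alone (Fosb, Arc and Egr4, 2.91% of all genes). APP/PS1/FTnKO against APP/PS1, and females against males, held 0 to 0 under every mouse left out. The cause of these shifts was not tested. DESeq2 on the compared genotypes and DESeq2 on 18 mice were chosen after seeing the data. Of single log2 fold changes 9 turned sign: Junb in APP/PS1 against WT, to 0.128 with 18 mice in edgeR and 0.123 in DESeq2, and Fosb in APP/PS1/FTnKO against APP/PS1, to between 0.0019 and 0.0507 in 7 of the 17 fits that left out 1 mouse, whose whole range was -0.164 to 0.0507. The lowest count of a member in the 17 mice was 117.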
